A study of Homo sapiens with 12 samples.

Results

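The type I interferon response genes described here are IFIT1, IFIT2, IFIT3, ISG15, MX1, OAS1, IFI6, STAT2 and IRF9, 9 of the 16271 genes in a table of RNA sequencing counts from HaCaT cells, an immortalised line of human skin keratinocytes. They were chosen by gene symbol as named members of the interferon pathway, with earlier results of these data known, and all 9 were among the 14676 genes that passed the filter on low counts. The study measured total RNA from VDR KO and WT cells, each after 8 h of 1,25(OH)2D3 or untreated, in 3 libraries per group. The 4 groups were therefore treated VDR KO, untreated VDR KO, treated WT and untreated WT cells. VDR is the nuclear receptor through which 1,25(OH)2D3, the hormonal form of vitamin D, acts on transcription. All cells were grown in DMEM with 10% FBS. The labels describe the replicates of a group as wells of a plate, so the tests gauge well-to-well spread, which may be technical. The labels state no dose, vehicle, edited site or number of KO clones, so a difference between genotypes and a difference between clones cannot be told apart.

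Type I interferons are cytokines that cells release when they sense foreign nucleic acid. They bind the IFNAR1 and IFNAR2 receptor chains, and the kinases JAK1 and TYK2 then phosphorylate STAT proteins, among them STAT2, which joins IRF9 in the complex called ISGF3. ISGF3 binds the interferon-stimulated response element (ISRE) in target promoters and turns on antiviral genes, among them the IFIT, MX and OAS families and ISG15. In keratinocytes the pathway takes part in the defence of skin against viruses and is active in several inflammatory skin diseases. Without added interferon the same genes are transcribed at a low level, in part through unphosphorylated STAT and IRF9 complexes.

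Library totals ran from 11.83 to 12.77 M (1e6 counts) in treated VDR KO, from 12.61 to 15.99 M in untreated VDR KO, from 13.13 to 13.89 M in treated WT and from 11.49 to 12.21 M in untreated WT cells. VDR mRNA averaged 82.8 ± 3.02 CPM (counts per 1e6 counts) in treated and 77.6 ± 4.07 CPM in untreated KO cells, against 71.0 ± 3.62 CPM in treated and 103.3 ± 3.81 CPM in untreated WT cells (SD, n = 3 each), so the label VDR KO is not checked by the level of the transcript, which a small edit need not remove. CYP24A1, the vitamin D catabolic enzyme that VDR induces, averaged 1676 ± 61.1 CPM in treated WT cells and 48.0 ± 2.88 CPM in untreated WT cells, a log2 change of 5.13. In VDR KO cells CYP24A1 averaged 12.2 ± 0.232 CPM after treatment and 16.9 ± 4.83 CPM without it, and this difference was not called by edgeR's quasi-likelihood test (adjusted p = 0.106). All 14 keratinocyte markers examined were in the table. Their summed level was 2030 to 2277 CPM in treated and 2378 to 2553 CPM in untreated KO libraries, against 5626 to 5839 CPM in treated and 5187 to 6438 CPM in untreated WT libraries. Of these markers 12 were lower in untreated KO than in untreated WT cells, with the smallest adjusted p for ITGB4, LAMB3 and KRT14, and DSG3 was higher. In the same comparison 34.2% of all tested genes were called lower and 35.5% higher. Of 18 markers of other cell types, 13 were absent from the table, among them the leukocyte genes PTPRC, CD3E, CD14 and CLEC4C. The 5 present (CD68, COL1A1, COL3A1, CDH5 and PMEL) summed to 10.4 to 14.9 CPM in treated and 13.5 to 15.7 CPM in untreated KO libraries, against 24.3 to 33.4 CPM in treated and 16.1 to 30.1 CPM in untreated WT libraries.

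IFIT2, IFIT3 and IFIT1 lie together within 122.8 kb of chromosome 10, and their promoters and those of the other members were searched for the ISRE core, written TTTC, any 2 bases, TTTC, on both strands. RefSeq (GRCh38.p14) windows of 250 bases before to 50 bases after the start were available for 8 of the 9 members, in 11 windows. The core was found for 5 of the 8 (IFIT1, IFIT3, ISG15, MX1 and IFI6), while 4.38% of the 27305 genes with such a window hold it, and 3.57% of all 35116 windows. No match was found in the windows of OAS1, STAT2 and IRF9. The search allowed no other spacing, so a window without a match may still hold a variant of the element. The OAS1 window holds GAAA, 1 base, GAAA, which was not counted. The sequences below are shown because genes with the same element differed in opposite directions between the genotypes: IFIT1 and IFIT3 were higher in VDR KO cells, and ISG15, MX1 and IFI6 were lower. IRF9, the DNA-binding subunit of ISGF3, was also lower and is shown as a window without the core. Each runs 5′ to 3′ in the gene's own direction, with the ISRE core in capitals (on the opposite strand it reads GAAA, any 2 bases, GAAA).
IFIT1 (chr10:89392373-89392672, plus strand): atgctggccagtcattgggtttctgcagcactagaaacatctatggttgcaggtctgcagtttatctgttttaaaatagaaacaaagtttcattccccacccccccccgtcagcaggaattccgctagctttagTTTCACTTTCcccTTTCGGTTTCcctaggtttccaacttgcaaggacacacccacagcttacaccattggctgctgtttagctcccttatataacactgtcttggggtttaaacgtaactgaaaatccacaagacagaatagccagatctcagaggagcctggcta
IFIT3 (chr10:89327747-89328046, plus strand): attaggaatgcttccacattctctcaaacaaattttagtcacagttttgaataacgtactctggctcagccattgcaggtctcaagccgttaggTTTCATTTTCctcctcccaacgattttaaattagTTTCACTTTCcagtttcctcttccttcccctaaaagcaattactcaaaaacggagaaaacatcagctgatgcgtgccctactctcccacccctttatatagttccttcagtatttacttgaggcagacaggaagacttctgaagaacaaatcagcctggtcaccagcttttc
ISG15 (chr1:1013247-1013546, plus strand): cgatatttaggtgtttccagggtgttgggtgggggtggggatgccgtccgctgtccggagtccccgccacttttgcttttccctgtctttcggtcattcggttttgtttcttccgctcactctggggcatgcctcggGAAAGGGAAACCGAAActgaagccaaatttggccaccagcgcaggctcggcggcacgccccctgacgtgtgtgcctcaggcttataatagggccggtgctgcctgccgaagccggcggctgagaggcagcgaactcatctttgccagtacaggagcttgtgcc
MX1 (chr21:41420308-41420607, plus strand): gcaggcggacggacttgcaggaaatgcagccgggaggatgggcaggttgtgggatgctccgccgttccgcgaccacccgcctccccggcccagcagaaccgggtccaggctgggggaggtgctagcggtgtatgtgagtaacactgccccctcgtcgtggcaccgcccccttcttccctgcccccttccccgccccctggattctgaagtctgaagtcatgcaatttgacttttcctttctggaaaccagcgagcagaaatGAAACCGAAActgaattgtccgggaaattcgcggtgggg
IFI6 (chr1:27672143-27672442, minus strand): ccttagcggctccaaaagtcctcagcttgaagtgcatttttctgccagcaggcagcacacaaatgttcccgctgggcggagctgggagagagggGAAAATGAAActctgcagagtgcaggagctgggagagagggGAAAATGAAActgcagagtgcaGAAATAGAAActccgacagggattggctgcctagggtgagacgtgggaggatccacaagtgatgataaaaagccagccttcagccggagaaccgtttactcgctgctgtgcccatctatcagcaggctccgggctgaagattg
IRF9 (chr14:24161015-24161314, plus strand): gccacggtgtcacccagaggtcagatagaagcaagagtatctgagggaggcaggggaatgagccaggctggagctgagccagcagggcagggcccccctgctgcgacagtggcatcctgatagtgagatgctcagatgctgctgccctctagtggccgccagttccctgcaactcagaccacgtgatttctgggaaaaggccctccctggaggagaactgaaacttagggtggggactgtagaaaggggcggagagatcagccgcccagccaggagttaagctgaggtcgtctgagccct
IFIT1 and IFIT3 each hold 2 matches in these windows, IFI6 holds 3, MX1 holds 1, and the 2 matches of ISG15 overlap. The STAT element GAS, searched as TTCNNNGAA, which reads the same on both strands apart from its centre, was found in a window of MX1, OAS1 and IRF9 and in 9.38% of all genes with a window. These matches describe letters in the windows and do not show binding.

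In untreated cells the 9 genes split by genotype rather than moving together. IFIT1, IFIT2 and IFIT3 were higher in VDR KO than in WT cells, ISG15, MX1, IFI6 and IRF9 were lower, and OAS1 and STAT2 were not called. Thus 3 members were called higher and 4 lower at an adjusted p below 0.05 (edgeR's quasi-likelihood test on the counts, Benjamini-Hochberg adjustment over all tested genes), 77.8% of the members. The genotypes differed broadly, since 69.7% of all tested genes were called in this comparison, 35.5% higher and 34.2% lower, so the share of members called is near the background. The same 3 members lay above and the same 4 below all WT libraries without overlap, while 35.7% and 33.5% of all tested genes did so. The median log2 difference of the members was -0.08, against 0.01 over all tested genes. After treatment 4 members were called higher in VDR KO than in WT cells and 5 lower, all 9 members, against 75.9% of all tested genes (38.4% higher and 37.4% lower). The 4 and the 5 did not overlap WT libraries either, as was the case for 41.1% and 39.8% of all tested genes. Levels of summed keratinocyte markers also separated the genotypes, as given above, and their part in these differences was not tested. In these bulk libraries fewer expressing cells and less RNA per cell cannot be told apart.

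**Figure D1:**
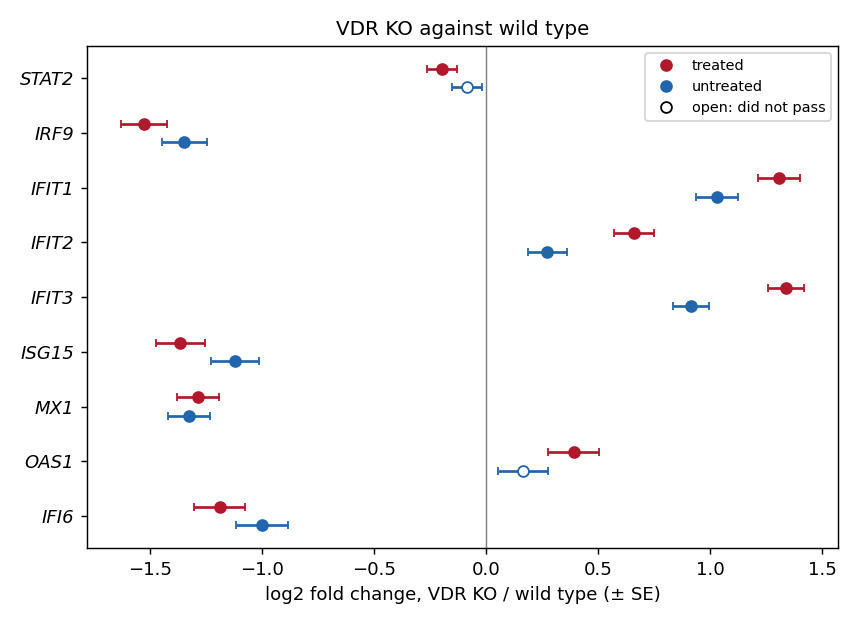
Log2 difference between VDR KO and WT cells for each member, untreated and after treatment, with bars of ± SE from edgeR (3 libraries per group) and open symbols where the adjusted p was 0.05 or more. The IFIT genes lie above 0, IRF9, ISG15, MX1 and IFI6 lie near -1 or below it, and STAT2 and OAS1 lie nearest 0.

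Of the 2 ISGF3 subunits among the members, IRF9 had the larger difference between genotypes. It lies at chr14:24161053-24166565 on the plus strand (GRCh38, GENCODE v29) and encodes the DNA-binding subunit of ISGF3. It had 45.1, 42.4 and 39.4 CPM in treated KO libraries and 54.6, 40.5 and 56.0 CPM in untreated KO libraries, against 116, 131 and 118 CPM in treated WT libraries and 129, 126 and 129 CPM in untreated WT libraries. Every KO library lay below every WT library. Untreated KO cells were 2.54-fold lower than untreated WT cells (log2 difference -1.34 ± 0.10 SE, adjusted p = 4.76e-09), and treated KO cells were 2.88-fold lower than treated WT cells (-1.53 ± 0.10, adjusted p = 8.21e-10). IRF9 overlaps in position a low-count gene ID named RNF31, which had 0 to 7 counts per library. Another gene ID named RNF31, not found to overlap IRF9, had 1698 to 2861 counts per library. It was called lower in KO than in WT cells, at a log2 difference of -0.48 untreated and -0.62 treated.

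STAT2, the partner of IRF9 that carries the activating domain, behaved differently. The gene lies at chr12:56341597-56360155 on the minus strand. It had 65.7, 61.7 and 65.9 CPM in treated KO libraries and 74.5, 71.1 and 70.7 CPM in untreated KO libraries, against 75.0, 76.4 and 69.8 CPM in treated WT libraries and 73.1, 78.2 and 77.9 CPM in untreated WT libraries. The untreated groups overlapped, and their log2 difference of -0.08 ± 0.07 (95% interval -0.22 to 0.05) was not called (adjusted p = 0.276) and was 0.04 when libraries were scaled by total count alone. The treated groups did not overlap, and STAT2 was called lower in treated KO cells at -0.19 ± 0.07 (adjusted p = 0.0156). That call was lost when libraries were scaled by total count alone (log2 difference -0.09, adjusted p = 0.266). The ratio of STAT2 to IRF9 counts within a library, with no correction for length, was 1.53 ± 0.126 in treated and 1.46 ± 0.262 in untreated KO cells, against 0.606 ± 0.033 in treated and 0.596 ± 0.0269 in untreated WT cells (SD, n = 3 each).

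The IFIT proteins bind foreign RNA and block its translation, and IFIT1 recognises the 5′ end of viral transcripts that lack full cap methylation. IFIT1 lies at chr10:89392546-89406486 on the plus strand. It had 46.0, 54.5 and 47.6 CPM in treated KO libraries and 47.7, 42.7 and 46.8 CPM in untreated KO libraries, against 18.1, 22.1 and 19.8 CPM in treated WT libraries and 22.1, 22.3 and 22.7 CPM in untreated WT libraries. All 6 KO libraries were above all 6 WT libraries. The gene was 2.04-fold higher in untreated KO than in untreated WT cells (log2 difference 1.03 ± 0.09, adjusted p = 4.41e-08) and 2.47-fold higher in treated KO than in treated WT cells (1.31 ± 0.09, adjusted p = 1.82e-09).

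IFIT3 encodes a protein that binds IFIT1 and strengthens its hold on RNA, and lies at chr10:89327894-89340971 on the plus strand. It had 136, 156 and 133 CPM in treated KO libraries and 136, 131 and 140 CPM in untreated KO libraries, against 53.0, 62.0 and 52.9 CPM in treated WT libraries and 71.0, 72.4 and 72.6 CPM in untreated WT libraries. Again the genotypes did not overlap. IFIT3 was 1.89-fold higher in untreated KO cells (0.91 ± 0.08, adjusted p = 2.96e-08) and 2.53-fold higher in treated KO cells (1.34 ± 0.08, adjusted p = 2.49e-10), each against WT cells under the same condition. The within-library ratio of IFIT1 to IFIT3 counts stayed between 0.311 and 0.357 as a group mean in all 4 groups.

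IFIT2, whose product also limits viral translation and can promote apoptosis, lies at chr10:89283694-89309276 on the plus strand and differed less. It had 118, 143 and 113 CPM in treated KO libraries and 122, 124 and 136 CPM in untreated KO libraries, against 74.1, 79.4 and 83.1 CPM in treated WT libraries and 112, 101 and 103 CPM in untreated WT libraries. The untreated genotypes were separated by a narrow gap. The log2 difference was 0.27 ± 0.09 in untreated cells (adjusted p = 0.0105) and 0.66 ± 0.09 in treated cells (adjusted p = 3.28e-06). Without the third untreated KO library the untreated difference was 0.22 and was no longer called (adjusted p = 0.0519). The 3 IFIT genes lie on the plus strand inside the span of LIPA, a lysosomal lipase gene on the minus strand. The labels do not state whether counting used strand, so reads of LIPA and of these genes cannot be told apart where their exons overlap. LIPA averaged 63.4 ± 7.35 CPM in treated and 66.9 ± 4.39 CPM in untreated KO cells, against 71.6 ± 5.46 CPM in treated and 68.3 ± 4.39 CPM in untreated WT cells, and was not called in any of the 5 comparisons.

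**Figure D2:**
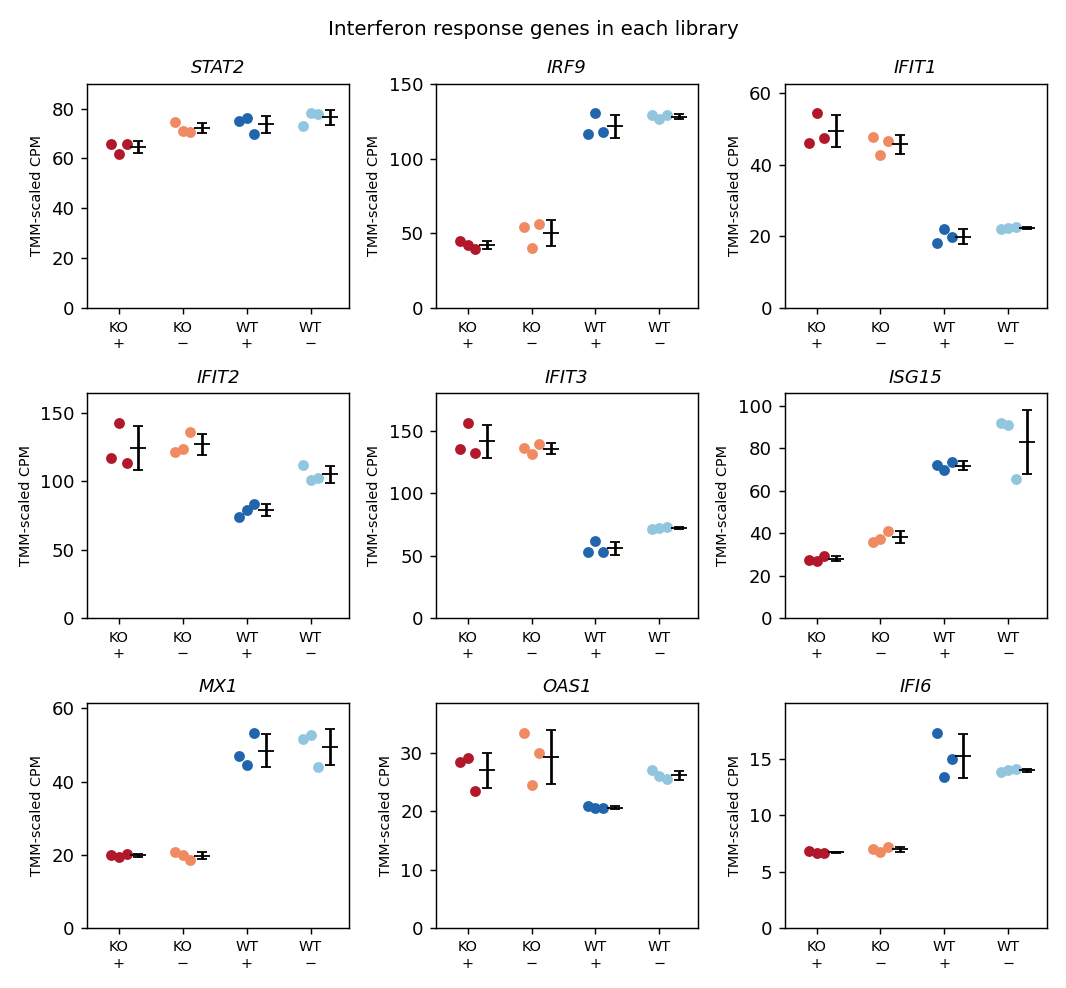
CPM (trimmed mean of M-values scaling) of the 9 members in each of the 12 libraries, with the mean and SD of each group of 3. KO libraries of IFIT1 and IFIT3 lie above all WT libraries, and those of ISG15, MX1, IFI6 and IRF9 lie below all WT libraries.

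MX1 encodes a dynamin-like GTPase that blocks early steps of influenza virus replication and is widely used as a marker of type I interferon action. The gene lies at chr21:41420304-41459214 on the plus strand. It had 20, 19.4 and 20.2 CPM in treated KO libraries and 20.7, 19.8 and 18.7 CPM in untreated KO libraries, against 47.1, 44.6 and 53.4 CPM in treated WT libraries and 51.6, 52.8 and 43.9 CPM in untreated WT libraries. The genotypes were far apart and the treated and untreated libraries of each genotype overlapped. MX1 was 2.50-fold lower in untreated KO cells (-1.32 ± 0.09, adjusted p = 2.76e-09) and 2.44-fold lower in treated KO cells (-1.29 ± 0.09, adjusted p = 2.42e-09) than in WT cells under the same condition.

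ISG15 encodes a ubiquitin-like protein that is conjugated to viral and host proteins and, in its free form, stabilises USP18, a brake on the receptor. It lies at chr1:1001138-1014540 on the plus strand. It had 27.3, 27.1 and 29.4 CPM in treated KO libraries and 35.9, 37.5 and 41.1 CPM in untreated KO libraries, against 72.3, 69.7 and 73.6 CPM in treated WT libraries and 92.1, 91.0 and 65.4 CPM in untreated WT libraries. KO libraries were all below WT libraries, and 1 untreated WT library, replicate 3, was low among its group. That library also had the lowest summed keratinocyte markers of its group, 5187 CPM against 6438 and 6354 CPM. ISG15 was 2.17-fold lower in untreated KO cells (-1.12 ± 0.11, adjusted p = 9.11e-08) and 2.57-fold lower in treated KO cells (-1.36 ± 0.11, adjusted p = 7.44e-09) than in their WT counterparts.

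IFI6 encodes a small membrane protein that interferes with flavivirus replication at the endoplasmic reticulum, and lies at chr1:27666061-27672218 on the minus strand. It was the least abundant member in CPM, with 6.78, 6.65 and 6.65 CPM in treated KO libraries and 7.02, 6.76 and 7.21 CPM in untreated KO libraries, against 17.3, 13.4 and 15.0 CPM in treated WT libraries and 13.9, 14.0 and 14.1 CPM in untreated WT libraries. These values rest on 81 to 120 counts per KO library and 153 to 220 counts per WT library. IFI6 was 2.00-fold lower in untreated KO cells (-0.998 ± 0.114, adjusted p = 7.21e-07) and 2.28-fold lower in treated KO cells (-1.19 ± 0.115, adjusted p = 6.75e-08).

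OAS1 encodes an enzyme that makes 2′-5′ oligoadenylate on double-stranded RNA, and lies at chr12:112906777-112933222 on the plus strand. It had 28.5, 29.1 and 23.6 CPM in treated KO libraries and 33.6, 24.5 and 30.1 CPM in untreated KO libraries, against 20.9, 20.5 and 20.6 CPM in treated WT libraries and 27.1, 26.1 and 25.5 CPM in untreated WT libraries. Untreated groups overlapped and their log2 difference of 0.17 ± 0.11 (95% interval -0.05 to 0.38) was not called (adjusted p = 0.191). It was called higher when libraries were scaled by total count alone (log2 difference 0.29, adjusted p = 0.0248) and when the second untreated KO library was left out (0.28, adjusted p = 0.025). Treated KO libraries lay above treated WT libraries, with a difference of 0.39 ± 0.11 (adjusted p = 0.00454).

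Ratios of counts within a library do not depend on how libraries are scaled, and they were chosen for description after the values had been seen. The ratio of IFIT3 to MX1 was 7.14 ± 0.816 in treated and 6.89 ± 0.507 in untreated KO cells, against 1.17 ± 0.203 in treated and 1.47 ± 0.161 in untreated WT cells. The ratio of IFIT3 to IRF9 was 3.36 ± 0.345 in treated and 2.74 ± 0.432 in untreated KO cells, against 0.459 ± 0.0139 in treated and 0.562 ± 0.0112 in untreated WT cells. For IFIT1 to ISG15 the values were 1.77 ± 0.211 in treated and 1.20 ± 0.11 in untreated KO cells, against 0.278 ± 0.0347 in treated and 0.277 ± 0.0608 in untreated WT cells (SD, n = 3 each). In each of these 3 ratios the numerator and the denominator moved in opposite directions between the genotypes, whereas both genes of the IFIT1 to IFIT3 ratio moved together.

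**Figure D3:**
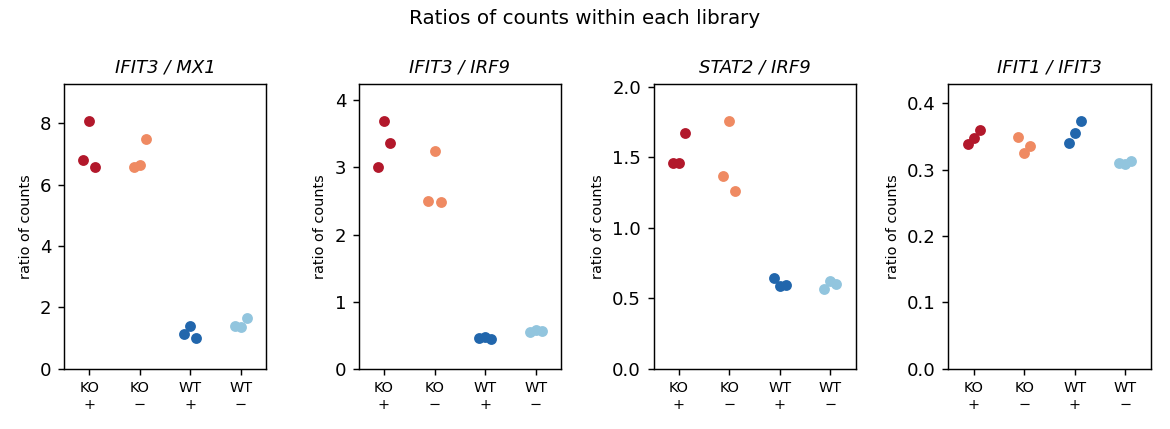
Ratio of counts of 2 members within the same library, on linear axes from 0, for the 12 libraries, with no correction for gene length. The ratios of IFIT3 to MX1, IFIT3 to IRF9 and STAT2 to IRF9 separate the KO libraries from the WT libraries, and the ratio of IFIT1 to IFIT3 does not.

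Levels were also set per kilobase of exon, taken over all annotated exons of a gene, from 0.865 kb for IFI6 to 8.616 kb for MX1. The lengths of the transcripts expressed in these cells and the annotation used for counting were not known. The order of the genes on this scale is therefore approximate. On that scale the leading gene changed with genotype. In treated KO cells IFIT3 led at 53.6 ± 4.94 CPM per kb, ahead of IFIT2 at 30.4 ± 3.93 and ISG15 at 29.7 ± 1.34, whose library ranges overlapped. IRF9 (11.1), IFIT1 (10.7) and STAT2 (10.5) followed without separation, and IFI6 (7.74), OAS1 (5.48) and MX1 (2.30) came last in that order. In untreated KO cells IFIT3 also led, at 51.4 ± 1.6 CPM per kb, followed by ISG15 at 40.6 ± 2.86 and IFIT2 at 31.0 CPM per kb, each without overlap with the next. IRF9 (13.3) and STAT2 (11.8) overlapped behind them, ahead of IFIT1 (9.91), IFI6 (8.09), OAS1 (5.94) and MX1 (2.29). In WT cells ISG15 led, at 76.4 CPM per kb after treatment and 88.0 CPM per kb without it, and IRF9 came next at 32.1 CPM per kb after treatment and 33.8 CPM per kb without it. In treated WT cells IFIT3 (21.2), IFIT2 (19.2) and IFI6 (17.6) overlapped in CPM per kb, ahead of STAT2 (12.1), MX1 (5.61), IFIT1 (4.33) and OAS1 (4.18), of which the last pair overlapped. In untreated WT cells IFIT3 (27.3) and IFIT2 (25.7) overlapped, ahead of IFI6 (16.2), STAT2 (12.5), MX1 (5.74), OAS1 (5.31) and IFIT1 (4.85), of which MX1 and OAS1 overlapped.

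The response to 8 h of 1,25(OH)2D3 in WT cells was small for these genes and went down where it was called. IFIT2, IFIT3 and OAS1 fell, no member rose (by edgeR, by DESeq2 or at an unadjusted p below 0.05), and the other 6 were not called, so 33.3% of the members were called against 24.5% of all tested genes (11.5% higher and 13.0% lower). The 3 were also the only members whose treated libraries did not overlap the untreated ones, while 19.4% of all tested genes lay wholly below and 19.9% wholly above. IFIT2 averaged 78.9 ± 4.53 CPM in treated WT cells and 105.2 ± 5.98 CPM in untreated WT cells, a log2 change of -0.42 ± 0.09 (adjusted p = 0.00317). IFIT3 averaged 56.0 ± 5.26 CPM in treated and 72.0 ± 0.841 CPM in untreated WT cells (-0.36 ± 0.08, adjusted p = 0.00416). OAS1 averaged 20.7 ± 0.202 CPM in treated and 26.2 ± 0.781 CPM in untreated WT cells (-0.34 ± 0.11, adjusted p = 0.0346). The OAS1 call was lost when the first or second untreated library or any 1 of the 3 treated libraries was left out, with adjusted p between 0.0541 and 0.105.

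Of the members not called in treated WT cells, ISG15 changed by -0.20 ± 0.10 (adjusted p = 0.166). Its low untreated library, replicate 3, decided this value: without that library the log2 change was -0.34 and was called (adjusted p = 0.00145). IFIT1 changed by -0.16 ± 0.10 (95% interval -0.35 to 0.03, adjusted p = 0.23). IFI6 changed by 0.12 ± 0.11 (adjusted p = 0.435) and MX1, STAT2 and IRF9 by -0.03, -0.05 and -0.07. The median log2 change of the members was -0.16, against -0.01 over all tested genes.

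In VDR KO cells the fit over the 4 groups called 2.55% of tested genes with 1,25(OH)2D3 (0.913% higher and 1.64% lower). That share depended on the fit. It rested on 134 genes higher and 240 lower, while DESeq2 gave 399 and 508. A fit of the KO groups alone gave 833 and 942, against 1092 and 1126 for the WT groups alone. Of the 9 members 1, ISG15, was called. ISG15 averaged 27.9 ± 1.26 CPM in treated KO cells and 38.2 ± 2.69 CPM in untreated KO cells, a log2 change of -0.45 ± 0.11 (adjusted p = 0.0455). That call lies close to the threshold and was lost when any 1 of the 6 KO libraries was left out (adjusted p between 0.0738 and 0.199). STAT2 was the other member whose treated KO libraries lay wholly below the untreated ones, as did 15.9% of all tested genes (15.7% lay wholly above), and its change of -0.16 ± 0.07 was not called (adjusted p = 0.179). IRF9 changed by -0.25 ± 0.10 (adjusted p = 0.162), and without the second untreated KO library, which was low, by -0.39 with an adjusted p of 0.028. IFIT1, IFIT3 and MX1 changed by 0.11, 0.06 and 0.01, and IFIT2, OAS1 and IFI6 by -0.03, -0.12 and -0.06, none of them called. The median over the members was -0.06, against 0.00 over all tested genes.

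**Figure D4:**
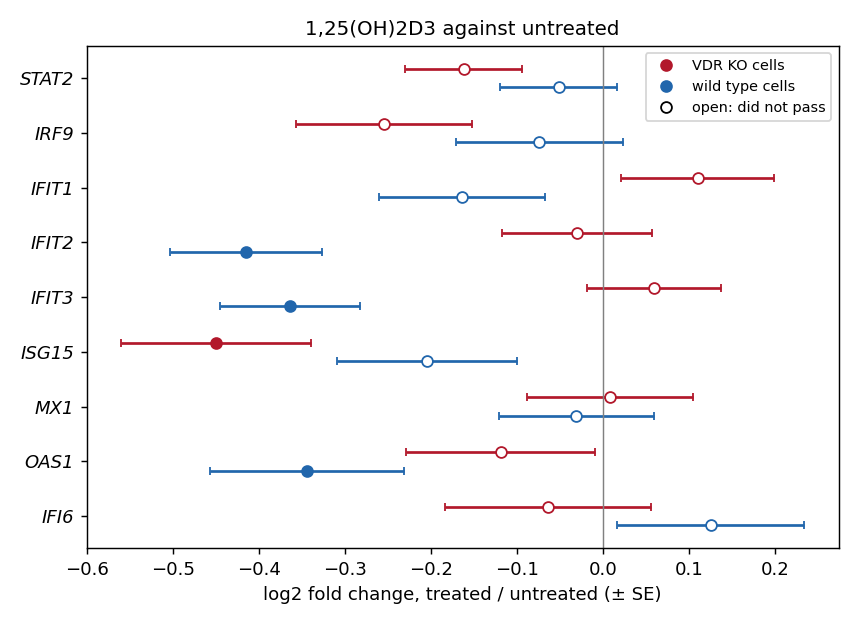
Log2 change with 8 h of 1,25(OH)2D3 for each member in VDR KO and WT cells, with bars of ± SE from edgeR (3 libraries per group) and open symbols where the adjusted p was 0.05 or more. In WT cells IFIT2, IFIT3 and OAS1 lie below 0, and in VDR KO cells ISG15 is the member called.

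The difference between the responses of the genotypes was tested directly as an interaction term. It was called for IFIT3, at 0.42 ± 0.11 (adjusted p = 0.0113), and for IFIT2, at 0.39 ± 0.12 (adjusted p = 0.0304), where a positive value means a log2 change that was higher in VDR KO than in WT cells. These 2 members are 22.2% of the 9, against 26.3% of all tested genes (13.8% positive and 12.5% negative), so the share is near the background. The IFIT2 call was lost when any 1 of 6 of the 12 libraries was left out (the first untreated WT, the first or second treated WT, the first or second untreated KO and the second treated KO library), with adjusted p between 0.0621 and 0.096. For ISG15 the difference was -0.25 and not called (adjusted p = 0.25), so the call in KO cells alone does not show that ISG15 responded differently in the genotypes. The same holds for OAS1, which was called in WT cells alone and had a difference of 0.23 (adjusted p = 0.311). For IFIT1, called in neither genotype, the difference was 0.27 ± 0.13 (adjusted p = 0.135).

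Of 50 other interferon-stimulated genes listed, 47 were in the table and tested. Like all tested genes, of which 35.5% were higher and 34.2% lower in untreated KO cells, they went both ways between the genotypes. In untreated cells 18 were higher in VDR KO than in WT cells and 17 lower, with a median log2 difference of 0.04 against 0.01 over all tested genes. Those higher with the smallest adjusted p were OASL, a catalytically inactive relative of the OAS enzymes (1.48 ± 0.07), LAMP3 (1.89 ± 0.15), IFI44 (1.63 ± 0.15), TNFSF10, which encodes the death ligand TRAIL (2.34 ± 0.21), and SAMD9L (1.40 ± 0.21). Those lower were XAF1, a pro-apoptotic antagonist of XIAP (-1.43 ± 0.12), SP100, a nuclear body protein (-0.96 ± 0.08), MX2, which restricts HIV-1 (-4.20 ± 0.38), TRIM14 (-0.72 ± 0.07) and PARP12 (-0.87 ± 0.08). TNFSF10 averaged 38.9 ± 4.8 CPM in untreated KO cells and 7.68 ± 2.3 CPM in untreated WT cells. MX2 averaged 0.23 ± 0.13 CPM in untreated KO cells and 4.20 ± 0.81 CPM in untreated WT cells. After treatment it averaged 0.45 CPM in KO and 1.91 CPM in WT cells. The MX2 log2 values given here and below therefore rest on few counts, and their size is imprecise. Over the members and these genes together, 56 in all, 8 were at least 2-fold higher and 8 at least 2-fold lower in untreated KO cells. At the same threshold 1464 of all 14676 tested genes were higher and 1376 lower.

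After treatment 38.4% of all tested genes were higher in VDR KO than in WT cells and 37.4% lower. Of the 47, 17 were higher and 16 lower (median 0.06, against 0.02 over all tested genes). OASL (1.41), LAMP3 (1.88), DDX60 (1.12), IFI44 (1.63) and TNFSF10 (2.36) had the smallest adjusted p among those higher, and PARP12 (-1.25), HELZ2 (-1.10), XAF1 (-1.46), PARP10 (-1.12) and TRIM14 (-0.77) among those lower, all as log2 differences. In WT cells treatment raised 3 of the 47, LGALS3BP (0.67 ± 0.14), PARP10 (0.39 ± 0.10) and PML (0.19 ± 0.06), and lowered 8, among them the RNA-activated kinase gene EIF2AK2 (-0.46 ± 0.08), DDX60 (-0.46 ± 0.10), SP100 (-0.35 ± 0.08), MX2 (-1.14 ± 0.27) and SP110 (-0.45 ± 0.11). In VDR KO cells treatment raised EIF2AK2 (0.40 ± 0.08, adjusted p = 0.0249) and none of the 47 was called lower. At an unadjusted p below 0.05 edgeR gave 1 higher and 8 lower, and DESeq2 called 1 higher and 1 lower. Scaling by total count alone and limma, which used the same scaling, each called 1 lower. A fit of edgeR on the KO groups alone called 5 lower. No gene of this list was called higher with edgeR when any KO library other than the third untreated one was left out. The difference of responses was positive for 6 of the 47, with EIF2AK2 (0.86 ± 0.12, adjusted p = 0.000181), SP100 (0.49), SP110 (0.63), MX2 (2.13) and OAS2 (0.54) named by the smallest adjusted p, and negative for 6, with LGALS3BP (-0.95), HELZ2 (-0.44), PML (-0.32), PARP12 (-0.38) and PARP10 (-0.42) named by the same rule. The 8 lowered in WT cells became 5 without the second treated WT library, and the 6 negative differences became 3 without the third treated WT, the first untreated KO or the third treated KO library. Over all tested genes treatment called 11.5% higher and 13.0% lower in WT cells, and 0.913% and 1.64% in KO cells. The difference of responses was positive for 13.8% of all tested genes and negative for 12.5%.

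**Figure D5:**
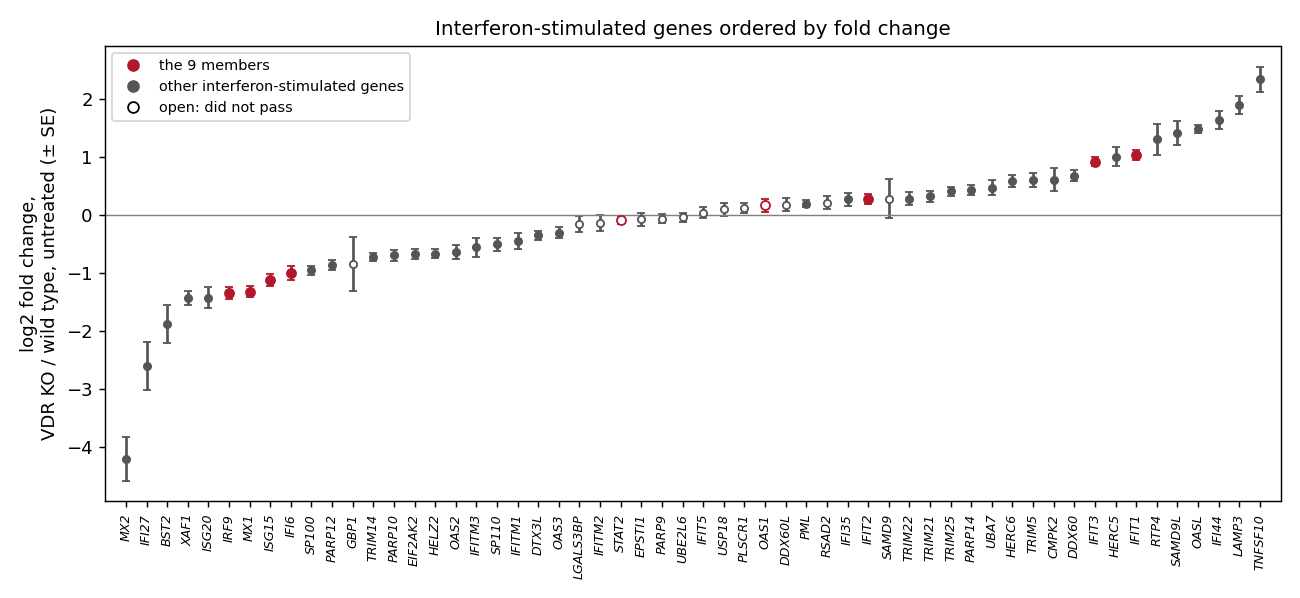
Log2 difference between untreated VDR KO and untreated WT cells for the 56 interferon-stimulated genes tested, in order, with bars of ± SE, members in red and open symbols where the adjusted p was 0.05 or more. The genes run from -4.20 for MX2 to 2.34 for TNFSF10, and members lie in both the upper and the lower part of the order. MX2 averaged only 0.23 CPM in untreated KO cells, so its value rests on few counts.

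Upstream genes also differed between the genotypes, where 69.7% of all tested genes were called in untreated cells (35.5% higher and 34.2% lower). After treatment the share was 75.9% (38.4% higher and 37.4% lower). Treatment called 11.5% of all tested genes higher and 13.0% lower in WT cells, and 0.913% and 1.64% in KO cells. The difference of responses was positive for 13.8% and negative for 12.5%. These shares stand beside the counts of this list and of the lists that follow. Of 21 interferon ligand genes listed, IFNE, the epithelial type I interferon, was the only one in the table, and it was set aside by the filter on low counts, averaging 0.128 ± 0.16 CPM in treated and 0.0715 ± 0.075 CPM in untreated KO cells, against 0.542 ± 0.44 CPM in treated and 0.466 ± 0.26 CPM in untreated WT cells. Without that filter, and with DESeq2, IFNE was called lower in untreated KO than in untreated WT cells. Of the 9 receptor chains and kinases, 5 were higher and 4 lower in untreated KO than in untreated WT cells, and 4 were higher and 4 lower after treatment. Untreated, the type II receptor chain gene IFNGR1 was higher at a log2 difference of 1.68 and its partner IFNGR2 lower at -0.97. The type I receptor chain IFNAR1 was higher at 0.59 and IFNAR2 lower at -0.36, IL10RB was higher at 0.50 and the kinase TYK2 lower at -0.28. Treatment called TYK2 higher in WT cells (0.24, a call lost without the second untreated or the second treated WT library), none of the 9 in VDR KO cells (0 also by DESeq2 and at an unadjusted p below 0.05), and no difference of responses (0 by DESeq2, 1 positive and 3 negative at an unadjusted p below 0.05).

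Of 14 other STAT and IRF factors listed, 10 were tested, and 7 of them were lower and 1 higher in untreated KO cells. IRF7, the factor that amplifies interferon production, was lower by -1.24 in log2, while IRF2, a repressor at the same element, was higher by 0.49. After treatment 7 were lower and 2 higher. The 2 became 1 with DESeq2, with its size factors, with other filters on low counts and at an adjusted p below 0.01. The same held without any single treated WT library and without the first or second treated KO library. Among those called in treated WT cells, IRF3 (0.42), IRF7 (0.24) and IRF5 (0.33) rose and IRF2 (-0.35) fell, and in VDR KO cells none of the 10 was called by DESeq2 or by edgeR over the 4 groups (1 higher and 3 lower at an unadjusted p below 0.05, and 1 called higher when the KO groups were fitted alone). The counts in treated WT cells fell to 1 higher and 1 lower without the first untreated, the first treated or the third treated WT library, to 1 lower without the second treated one, and to 1 higher and 0 lower when the WT groups were fitted alone. The difference of responses was called positive for IRF2 (0.62) and negative for IRF3 (-0.57), IRF5 (-0.68) and IRF7 (-0.46).

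Inhibitors of the pathway formed a list of 10 that includes the member ISG15. In untreated KO cells 4 were lower, among them ISG15, SOCS1, which blocks the JAK kinases (-0.72), and the phosphatase gene PTPN6 (-0.41), and PIAS1 was higher (1.11). The 4 became 2 with scaling by total count alone and with limma, which used that scaling. The same held at an adjusted p below 0.01 and without the first untreated WT library. After treatment 6 were lower and 2 higher. In WT cells treatment raised IRF2BP1 (0.83) and IRF2BP2 (0.62) and lowered PTPN2 (-0.31). No inhibitor was called higher in treated WT cells by edgeR without the first untreated or any 1 of the 3 treated WT libraries, and none lower without the first or second treated one or when the WT groups were fitted alone (5 higher and 1 lower at an unadjusted p below 0.05). ISG15 was the inhibitor called in treated KO cells, and 3 inhibitors had a lower response in VDR KO than in WT cells, IRF2BP2 (-1.03), SOCS3 (-0.86) and SOCS1 (-0.83).

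Of 16 genes of RNA and DNA sensing tested, 9 were higher and 3 lower in untreated KO cells, including DDX58, which encodes the RNA sensor RIG-I (1.10 ± 0.12), TMEM173, which encodes STING (1.49 ± 0.16), and the kinase gene IKBKE (0.55 ± 0.07) among those higher and TRAF3 (-0.83), TICAM1 (-0.61) and MAVS (-0.37) among those lower. DDX58 averaged 195 ± 5.7 CPM in treated and 169 ± 9.4 CPM in untreated KO cells, against 59.7 ± 2.2 CPM in treated and 78.8 ± 18 CPM in untreated WT cells. After treatment 9 were higher and 5 lower. Treatment of WT cells lowered IKBKE (-0.36), DDX58 (-0.40) and IFI16 (-0.57) and raised none, no sensing gene was called in treated KO cells by DESeq2 or by edgeR over the 4 groups (0 higher and 2 lower at an unadjusted p below 0.05, and 1 higher and 1 lower called when the KO groups were fitted alone), and the difference of responses was positive for 4, with IKBKE (0.40), DDX58 (0.61) and SAMHD1 (0.36) named. The 3 lowered in WT cells became 1 without the third untreated, the first treated or the third treated WT library. The 4 positive differences became 2 without the first untreated, the second treated or the third treated WT library and without the first untreated or the first treated KO library.

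Over the 12 libraries the genes most like the mean standardised log2 level of the 9 members, among 11234 tested genes with at least 10 CPM, were IL1RN (Pearson's r = 0.97), HNRNPA3 (0.92), GDI2 (0.92), CHCHD5 (0.91) and LINC00511 (0.91). The libraries share genotype and treatment, and the r values are descriptions. The members themselves had r of -0.41 (IFIT1) to 0.70 (STAT2) with that mean, so it stands for no single member.

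Where the authors' deposited tables of enriched terms name a member, its direction is that of the counts. They hold only genes of listed terms, and IFIT2 and IFIT3 are not named among the genes higher in untreated KO cells. The authors' deposited table for genes lower in untreated KO than in untreated WT cells gives a term for the type I interferon response. The term held 34 of 3405 listed genes, against 71 of 10967 background genes. Its adjusted p from the authors was 0.0549, above the 0.05 used here. The members named in it are ISG15, MX1, IFI6 and IRF9. In the authors' deposited table of genes higher in untreated KO cells, a defence regulation term names IFIT1. That term held 162 of 3062 listed genes, against 449 of 10967 background genes (authors' adjusted p = 0.00799). For treated against untreated KO cells the authors' deposited table of lower genes has a viral genome replication term that names ISG15. This term held 12 of 306 listed genes, against 100 of 10957 background genes (authors' adjusted p = 0.00246). For treated against untreated WT cells, the authors' deposited table of lower genes names IFIT3 in a term on cell proliferation. The proliferation term held 60 of 840 listed genes, against 473 of 10954 background genes (authors' adjusted p = 0.0122). These tables were made from the same libraries and are not independent of the counts.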

How the data were processed

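The authors deposited whole-number counts per gene and CPM (counts per 1e6 counts) for 12 libraries, with human Ensembl IDs. The deposited CPM equal each count over its library total, to within 0.005. The authors also deposited tables of enriched terms with counts of genes and adjusted p-values, per the file headers. The submitters' processing notes name BWA 0.5.9 and build mm9, a mouse build that does not match human gene IDs, so the build, annotation, counting tool and use of strand remain unstated.

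The 9 members were found by symbol. Counts were fitted with edgeR 4.0.16 (R 4.3.3): TMM scaling (factors 0.95 to 1.057), filterByExpr, which set aside 1595 genes, 1 model over the 4 groups, robust quasi-likelihood tests and Benjamini-Hochberg adjustment over 14676 genes in each of 5 comparisons. An adjusted p below 0.05 was called. Printed CPM are TMM-scaled, and SE is the log2 change over the square root of F. Counts below 100 limit precision for IFI6 in KO cells. DESeq2 1.42.0 and limma 3.58.1 were alternatives, and the procedure was tested on simulated data. Limma was run on the deposited CPM, which are scaled by library total alone, so it is not separate from that scaling. Positions and exon lengths are from GENCODE v29 (15524 of 16271 IDs matched) and promoters from RefSeq.

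All members are named. Of the other interferon-stimulated genes, up to 5 called in each direction with the smallest adjusted p are named, and up to 3 from each other list; a few further values were chosen after they were seen. Members and lists were chosen with earlier results of these data known. Same-numbered libraries did not deviate together in every pair (r from -0.175 to 0.121), so numbers were not used as pairs. Some genes of the pathway lists are not reported here.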

Additional observations from a re-analysis of the deposited data

Results flagged for a closer look

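The response to 1,25(OH)2D3 differed between the genotypes, by the interaction term of edgeR's quasi-likelihood test, for 2 of the 9 members. That is 22.2% of the members, against 26.3% of all tested genes. For IFIT3 the log2 change with treatment was 0.06 in VDR KO cells and -0.36 in WT cells, a difference of 0.423 (adjusted p = 0.0113). For IFIT2 it was -0.03 in VDR KO cells and -0.42 in WT cells, a difference of 0.385 (adjusted p = 0.0304). For both, the called change was the fall in treated WT cells, and the change in treated KO cells was not called. Neither difference was called at an adjusted p below 0.01. The IFIT2 call was also lost when any of several single libraries was left out, as given above.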

How the results depend on the processing

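Of 396 member log2 differences under other scalings, tests, filters and sets of samples, at the same threshold, 383 kept their direction and their side of the threshold, 4 lost and 3 gained a call, and 6 changed sign, none of those called. Stricter thresholds are given below as counts. With each library left out in turn, 287 of 324 kept both, 20 lost and 4 gained a call, and 13 changed sign. Scaling by total count alone shifted the median log2 difference of all genes between KO and WT cells to 0.13 (untreated and treated), and the share of calls that were higher to 60.4% from 50.9% in untreated cells and to 20% from 35.8% for treatment of KO cells. The cause of the changes listed here was not tested.

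The sign changes were all in values near 0. With treatment of KO cells MX1 was -0.0061 with total counts alone and -0.0055 and -0.0056 with limma (pseudocounts 1 and 0.5). STAT2 between untreated KO and WT cells was 0.0385 with total counts alone and 0.0387 and 0.039 with limma. Limma was run on CPM scaled by total count, so these settings share a scaling. With each library left out, MX1 ranged from -0.1037 to 0.0343 for treatment of WT cells, from -0.0327 to 0.0451 for treatment of KO cells and from -0.0339 to 0.1045 for the difference of responses. For treatment of KO cells IFIT2 ranged from -0.1407 to 0.0345 and IFIT3 from -0.0184 to 0.1051.

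Calls over all genes moved by over 1.5 times as follows. For treatment of WT cells (1688 higher, 1914 lower) a fit of the compared groups alone gave 1092 and 1126, an adjusted p below 0.01 gave 816 and 994, and at least 2-fold gave 72 and 62, with 0 members lower. For treatment of KO cells (134 higher, 240 lower) total counts alone gave 392 lower, limma 369 and 366 lower, DESeq2 399 and 508, the compared groups alone 833 and 942, an adjusted p below 0.01 gave 0 and 36, and at least 2-fold 7 and 4, the last pair of settings with 0 members. Between KO and WT cells, at least 2-fold gave 1464 and 1376 of 5207 and 5019 untreated, with 1 member higher, and 1922 and 2034 of 5640 and 5493 treated, with 2 members higher. For the difference of responses (2025 positive, 1832 negative) an adjusted p below 0.01 gave 1047 and 874, and at least 2-fold 162 and 227, both with 0 members.

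Leaving out each library gave 1010 to 1825 higher and 1102 to 1970 lower for treatment of WT cells (members lower 2 to 4), 0 to 66 and 8 to 212 for treatment of KO cells (members lower 0 to 1), 4821 to 5447 and 4648 to 5259 between untreated genotypes (members higher 2 to 4, lower 4), 5245 to 5422 and 5197 to 5391 between treated genotypes (members higher 4, lower 4 to 5), and 1427 to 2231 and 1319 to 2091 for the difference of responses (members positive 1 to 2, negative 0 to 1). STAT2 between treated genotypes lost its call without the first treated WT library (adjusted p = 0.0512) or the second treated KO library (adjusted p = 0.0686). With the replicate number as a block, 37 genes rose and 106 fell with treatment of KO cells and ISG15 was no longer called (-0.451, adjusted p = 0.0772), and the counts of members called in the other 4 comparisons were as reported. The numbers do not pair the libraries by the check in the methods.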
